A study of Mus musculus with 4 samples.

Results

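Among 82325 sites of accessibility in immortalized mouse embryonic fibroblasts (MEFs), 596 were at least 2-fold lower in both HAT1-/- libraries than in both HAT1+/+ libraries. ATAC-Seq measures accessibility with the transposase Tn5, which places sequencing adapters into DNA that chromatin leaves exposed, and the reads over a site rise with its openness. The unit throughout is the normalized count, which is the authors' read count of a site divided by a factor for its library and rounded. The sites were selected on these values, so their lower level in HAT1-/- cells is a description and was not tested. An autosomal site was taken when the mean of its HAT1+/+ values was at least 20 and when the smaller HAT1+/+ value plus 1 was at least 2 times the larger HAT1-/- value plus 1. Of 80465 autosomal sites, 71105 had a HAT1+/+ mean of 20 or more and could therefore pass, and the 596 were 0.838% of them.

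The study asked how loss of HAT1 alters chromatin accessibility, and this series holds 4 libraries, 2 from HAT1 WT (HAT1+/+) and 2 from HAT1 KO (HAT1-/-) MEF lines. All lines were of C57bl6 strain background, came from mid-gestation embryos and had been immortalized by transfection with a plasmid for SV40 T antigen, so the HAT1+/+ controls carry the T antigen as well. The cells were untreated, each library came from a differently named line, and whether a line was a single clone was not given in the sources used here. The names of HAT1+/+ replicate 1 and HAT1-/- replicate 2 share a number, whose meaning is not stated.

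HAT1 is the acetyltransferase that modifies newly synthesized histone H4 before it is assembled into chromatin behind the replication fork. Heterochromatin is the compact, mostly silent part of the genome, is typically poor in genes and in G and C, and has few accessible sites. AP-1, a family of Fos and Jun dimers, binds many of the distal accessible sites of fibroblasts. It was searched for here by the letters TGANTCA, in which N stands for any base.

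To show what these regions look like, the middle 250 bases of the 4 sites with the largest ratio of the smaller HAT1+/+ value to the larger HAT1-/- value (each plus 1) are given from GRCm38 (mm10), forward strand, 5′ to 3′. Capitals mark matches to the AP-1 letters.
Brinp1, intergenic, chr4:68536436-68536685: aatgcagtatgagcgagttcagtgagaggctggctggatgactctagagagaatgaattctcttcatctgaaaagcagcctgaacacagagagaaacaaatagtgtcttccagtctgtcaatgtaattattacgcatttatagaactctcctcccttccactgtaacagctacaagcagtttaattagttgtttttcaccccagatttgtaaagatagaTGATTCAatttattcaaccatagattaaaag
Cdh7, intergenic, chr1:109823634-109823883: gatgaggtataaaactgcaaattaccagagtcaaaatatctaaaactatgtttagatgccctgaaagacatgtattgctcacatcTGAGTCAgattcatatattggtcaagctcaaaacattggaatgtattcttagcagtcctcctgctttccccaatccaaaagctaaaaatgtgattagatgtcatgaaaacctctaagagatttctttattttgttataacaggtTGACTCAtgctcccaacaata
Pcdh9, intergenic, chr14:94273719-94273968: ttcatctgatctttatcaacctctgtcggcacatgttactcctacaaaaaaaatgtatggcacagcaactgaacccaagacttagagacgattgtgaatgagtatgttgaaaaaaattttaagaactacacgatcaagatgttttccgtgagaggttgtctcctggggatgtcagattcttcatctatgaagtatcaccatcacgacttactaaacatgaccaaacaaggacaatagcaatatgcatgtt
Thsd7b, intronic, chr1:130270599-130270848: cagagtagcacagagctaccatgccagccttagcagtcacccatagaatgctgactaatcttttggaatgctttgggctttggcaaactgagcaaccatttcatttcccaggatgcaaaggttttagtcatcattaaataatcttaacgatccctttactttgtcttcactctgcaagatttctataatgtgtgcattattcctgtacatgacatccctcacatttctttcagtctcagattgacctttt

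Sites are named by the protein-coding gene with the nearest transcription start site (TSS), which is an address and not a claim that the site acts on that gene. A site called near a gene has its nearest such TSS at that gene, at any distance. The first of these windows held 1 AP-1 match, the Cdh7 window held 2, and those of Pcdh9 and Thsd7b held none. The G and C content of the windows was 37.6%, 34.8%, 38% and 40%, in the order given.

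Grouping the libraries by genotype gave fewer such sites, over both directions, than grouping them across genotype. The same rule applied in the other direction found 104 sites (0.150% of 69479) that were higher in both HAT1-/- libraries. With the libraries paired across genotype, 663 sites (0.961% of 68998) were higher in HAT1+/+ replicate 1 and HAT1-/- replicate 1, and 1125 (1.60% of 70490) were higher in HAT1+/+ replicate 2 and HAT1-/- replicate 2. In the other mixed pairing, 530 sites (0.751% of 70611) were higher in HAT1+/+ replicate 1 and HAT1-/- replicate 2, and 233 (0.334% of 69664) were higher in the remaining pair. Over both directions the genotype gave 700 sites, against 1788 and 763 for the mixed pairings. Both mixed totals thus exceeded the total by genotype, and the 596 lay within the range of the 4 mixed counts. The counts of the directions were most unequal by genotype, with 596 sites lower and 104 higher in HAT1-/-. With 2 libraries against 2, an exact permutation of the libraries cannot go below a two-sided p of 0.333.

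**Figure D1:**
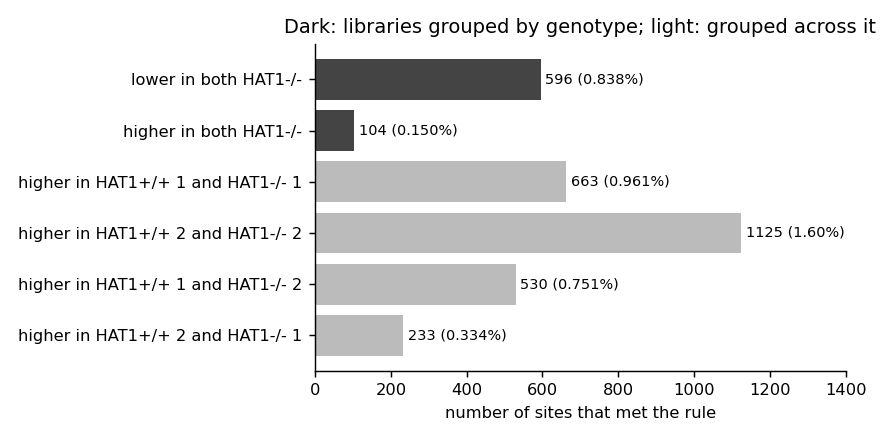
Number of autosomal sites (x axis) that met the rule when the libraries were grouped by genotype (dark bars) or across genotype (light bars), with the share of sites that could pass beside each bar. The count of 596 lower in both HAT1-/- libraries lies between the 233 and 1125 of the mixed groupings.

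Both HAT1-/- libraries were also the shallower. From the spacing of the rounded values, about 9420000 and 11400000 reads lay in sites for HAT1+/+ replicates 1 and 2, against 7830000 and 5650000 for HAT1-/- replicates 1 and 2. At the 596 sites the median was about 42 and 55 reads in the HAT1+/+ libraries and 7 and 6 in the HAT1-/- libraries. HAT1-/- replicate 1 had at most 3 reads at 123 of the sites (20.6%) and HAT1-/- replicate 2 at 149 (25%). A count of 0 allows up to 3 reads, which are 2.55, 2.14, 3.23 and 4.52 normalized counts in the 4 libraries, so the lowest HAT1-/- values cannot be ranked among themselves. The part of depth in the number of sites was not tested.

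Fibroblast markers had accessible promoters in every library. Of 12 fibroblast genes 11, among them Col1a1, Vim and Twist2, had promoter sites, with a median over the genes of 366 and 361 normalized counts in HAT1+/+ and 389 and 370 in HAT1-/- replicates 1 and 2. Lum had no promoter site. Promoter sites summed over the fibroblast list ranged from 4797 to 5878. The same sums ranged from 165 to 256 for 3 of 6 epithelial genes and from 226 to 349 for 4 of 4 endothelial genes. They ranged from 152 to 215 for 1 of 4 haematopoietic genes and from 477 to 527 for 3 of 4 neural genes. Medians over the listed genes were 6 to 16.5 for epithelial, 43.5 to 81 for endothelial, 0 for haematopoietic and 118 to 142 for neural genes. No promoter site was listed for Ptprc, Spi1, Itgam, Sox10, Krt5, Krt14, Krt18 or any of 4 skeletal muscle genes. None of the promoter sites of these markers was among the 596, and the part of other cell types in the result was not tested.

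The selected sites were weak in HAT1+/+ cells, as the sites of the other groupings were in their high libraries. Their values in HAT1+/+ replicate 1 ran from 7 to 274 with a median of 36, and in replicate 2 from 8 to 452 with a median of 39. In HAT1-/- replicate 1 they ran from 0 to 93 with a median of 8, and in replicate 2 from 0 to 83 with a median of 9. The plot of values by library shows no shift between the replicates of a genotype that compares with the shift between genotypes, which the rule itself imposes. The median of the mean HAT1+/+ value was 38 for these sites and 61.5 for all that could pass, and the same median over the high libraries was 41.8 for the sites higher in HAT1-/- and 42.5, 47, 40 and 55 for the mixed sets. Their median length was 393 bp, against 473 bp.

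**Figure D2:**
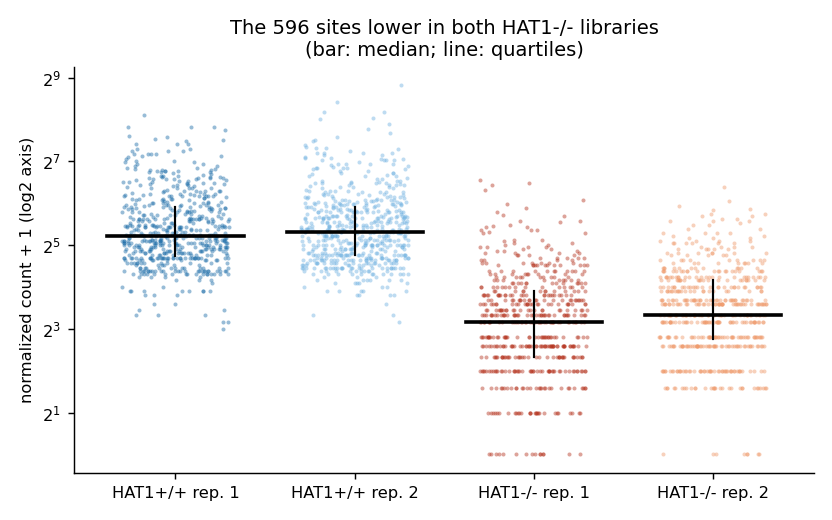
Normalized count plus 1 (log2 axis) of each of the 596 sites in the 4 libraries, with the median as a bar and the quartiles as a line. Medians are 36 and 39 in HAT1+/+ and 8 and 9 in HAT1-/- before 1 is added; the distance between genotypes is what the sites were selected on.

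The share of sites that met the rule fell with the HAT1+/+ signal. It was 1.46% for sites with a HAT1+/+ mean from 20 to 40, 0.969% from 40 to 80, 0.454% from 80 to 160 and 0.0944% at 160 or more. Of the 596, 395 (66.3%) had a mean under 50 and 52 (8.72%) a mean of 100 or more. Strong sites were therefore rare in the group.

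Most sites passed by a small margin. The median ratio was 2.44, 317 sites (53.2%) had a ratio under 2.5, 188 (31.5%) one of at least 3, 51 (8.56%) one of at least 5 and 9 (1.51%) one of at least 10. The log2 difference (mean of log2(value + 1) in HAT1-/- minus that in HAT1+/+) had a median of -1.94, and was -1.98 for HAT1-/- replicate 1 alone and -1.77 for replicate 2 alone. At 23 sites (3.86%) at least 1 HAT1-/- value was 0, and at none were both. The 2 HAT1-/- libraries differed from each other by more than 2-fold at 159 sites (26.7%) and the 2 HAT1+/+ libraries at 86 (14.4%). HAT1-/- replicate 1 was the lower of the HAT1-/- libraries at 331 sites, replicate 2 at 206, and they were equal at 59. In the order of their counts above, the mixed sets had median ratios of 2.29, 2.38, 2.57 and 2.22. Ratios of at least 5 made up 1.36%, 2.84%, 8.49% and 2.58% of them. In the set higher in HAT1+/+ replicate 1 and HAT1-/- replicate 2, 10 sites had a ratio of at least 10. The largest ratio there was 35.0, against 15.2 among the 596. Large ratios were thus not particular to the genotype pairing.

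Many sites lay close to the edge of the rule. A ratio of exactly 2 was found at 60 sites, and 61 sites missed the rule with a ratio of at least 1.9. Just inside stood a site 35.1 kb from Uxs1 with 25 and 25 normalized counts in HAT1+/+ and 6 and 12 in HAT1-/- replicates 1 and 2. With it stood an intronic site near Adam23 with 19, 22, 8 and 9, in the same order of libraries. Just outside was a site 62.4 kb from Rgs2 with 102, 88, 15 and 44. Also outside was a site 115 kb from Adamts15 with 129, 134, 65 and 50. Another lay 425 kb from Gpr158, with 71, 58, 24 and 29. The Rgs2 site is a case of a large difference in 1 HAT1-/- library and a smaller one in the other.

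The sites with the largest ratios were mostly distal. Values are given from here on for HAT1+/+ replicates 1 and 2 and then HAT1-/- replicates 1 and 2. The largest ratio, 15.25, was at an intergenic site 293 kb from the TSS of Brinp1, a gene induced by bone morphogenetic protein and retinoic acid in neural cells, at chr4:68536198-68536923, with 85, 60, 3 and 3 normalized counts. A site 159 kb from Cdh7, which encodes a classical cadherin, had 43, 72, 2 and 0 (chr1:109823537-109823980). A site 383 kb from the protocadherin gene Pcdh9 had 23, 63, 1 and 0 (chr14:94273560-94274126). In each of these the HAT1-/- values were at or below the level of a few reads, while the 2 HAT1+/+ values differed by up to the gap seen at Pcdh9.

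A site within an intron, 107 kb from Thsd7b, had 33, 66, 0 and 2 normalized counts. The site near Mrgprb5, a receptor of the Mas-related family, was strong, with 183, 160, 11 and 14 (chr7:48137477-48138713). Among the promoters, that of the predicted gene Gm3468 had 191, 167, 15 and 3 and that of Serpinb8, an intracellular protease inhibitor, had 103, 130, 9 and 5. At these 3 sites the HAT1+/+ libraries lay close together.

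The last 3 of the 10 largest ratios were all on chromosome 12. A site 1182 kb from Flrt2, a gene for a leucine-rich repeat adhesion and guidance protein, had 40, 72, 3 and 3 normalized counts. A site 1248 kb from Galc, the lysosomal galactosylceramidase, had 42, 29, 2 and 0. A site 1826 kb from Sel1l, an adaptor of protein degradation at the endoplasmic reticulum, had 72, 64, 1 and 6. The 1 Mb around each held no protein-coding TSS.

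Among the sites with the highest HAT1+/+ values was another at Brinp1. Within an intron of that gene, at chr4:68788511-68789754, the values were 274, 452, 23 and 38 normalized counts, the highest HAT1+/+ mean of all (363). The site near Isx, an intestinal homeobox gene 575 kb away, had 177, 342, 86 and 41. A site 260 kb from Akain1, an inhibitor of kinase anchoring, had 224, 290, 40 and 33, and one 443 kb from Dpp10, an auxiliary subunit of potassium channels, had 215, 287, 39 and 48. The promoter of Thbd, the thrombin receptor thrombomodulin, had 224, 238, 93 and 44. At Isx and Thbd the HAT1-/- libraries differed by about 2-fold from each other, whereas at Akain1 and Dpp10 they lay close together.

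The sites were more often intergenic and less often in promoters than the sites that could pass. Of the 596, 270 (45.3%, 95% Wilson interval 41.3 to 49.3) were intergenic, against 28.8% of all that could pass. Within 3 kb of a TSS lay 128 (21.5%, 18.4 to 25), against 37.0%. Introns held 188 (31.5%, against 32.0%) and exons 10 (1.68%, against 2.18%). The intervals cover counting error alone, and since neighbouring sites share their surroundings they are too narrow. The median distance to the nearest protein-coding TSS was 53.8 kb, against 11.7 kb, and 227 sites (38.1%) were more than 100 kb from one, against 12.3%.

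They also lay in regions poor in genes and in G and C. The median GC content of the surrounding 100 kb was 41.4%, against 44.6%, and 229 sites (38.4%) had less than 40%, against 10.4%. The 1 Mb around a site held a median of 4 protein-coding TSSs, against 10, and at 73 sites (12.2%) it held none, against 1.81%. Read the other way, 5.43% of the sites that could pass in surroundings under 38% GC met the rule, 2.25% of those from 38 to 40% and 0.257% of those at 46% or more. Of the sites with no protein-coding TSS in the surrounding 1 Mb 5.68% met it, and of those with 21 or more 0.261% did. Both shares fell at every step in the plot by GC content and gene number.

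**Figure D3:**
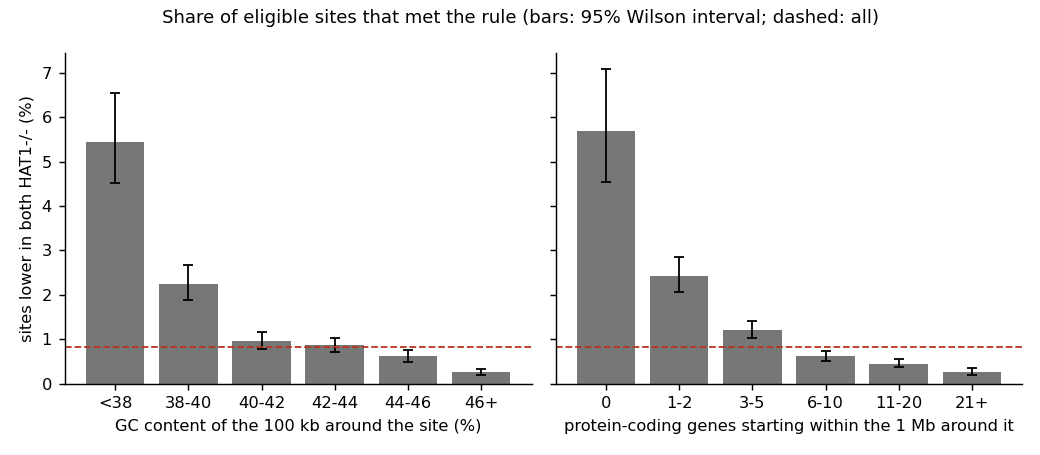
Percent of the sites that could pass that were lower in both HAT1-/- libraries (y axis), by the GC content of the surrounding 100 kb (left) and the number of protein-coding TSSs in the surrounding 1 Mb (right), with 95% Wilson intervals and the overall 0.838% as a dashed line. The share falls from 5.43% to 0.257% with GC content and from 5.68% to 0.261% with gene number.

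Part of this position was shared with the mixed pairings. The sites higher in HAT1+/+ replicate 1 and HAT1-/- replicate 2 had a median GC content of 41.0% and a median of 4 genes in 1 Mb, and those higher in HAT1+/+ replicate 2 and HAT1-/- replicate 2 had 41.6% and 5. The remaining mixed sets, higher in both replicates numbered 1 and higher in HAT1+/+ replicate 2 with HAT1-/- replicate 1, had 44.5% and 9, and 43.5% and 6. Intergenic sites made up 37.8% to 42.6% of the 4 mixed sets and 46.2% of the 104 higher in HAT1-/-. Promoters made up 21.4%, 11.4%, 20.4% and 15.5% of the mixed sets, in the order of their counts above, and 12.5% of the 104, so the 21.5% of the 596 was the highest of the 6 sets. More than 100 kb from a protein-coding TSS lay 16.6%, 33.6%, 39.4% and 23.2% of the mixed sets, against 38.1% of the 596. Neither a low GC content nor a distal position was thus particular to the genotype pairing.

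The difference in position was also seen among sites of like HAT1+/+ signal. Among sites with a HAT1+/+ mean from 20 to 40, 52.0% of those that met the rule were intergenic against 36.6% of those that could pass, and the median GC content was 41.1% against 43.8%. From 40 to 80 the intergenic shares were closer, 37.4% and 32.0%, with GC contents of 42.1% and 44.7%. From 80 to 160 the shares were 36.5% and 27.2% and the GC contents 42.4% and 45%. At 160 or more, where 14 sites met the rule, they were 42.9% against 14.5% and 40.3% against 45.3%.

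Chromosomes differed in their share of these sites. Chromosome 14 had the highest, with 48 of 2772 (1.73%), followed by chromosomes 1 (69, 1.40%), 5 (59, 1.38%) and 3 (54, 1.32%). Chromosomes 11 (15, 0.296%) and 19 (8, 0.351%) had the lowest. Over its sites that could pass, chromosome 14 had a median log2 difference of -0.19 and chromosome 19 one of 0.22, each in the direction of its count. Chromosome 1, with a high share, and chromosome 11, with the lowest, each had a median of 0.01. The part of the chromosome medians in these shares was not tested, and without chromosome 14 there were 548 sites. The gene Hat1 itself lies on chromosome 2, where the 10 Mb on either side held 5 of these sites among 567 that could pass (0.882%). The Hat1 promoter site had 390, 384, 438 and 368 normalized counts and does not report on the deletion.

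The sites came in groups. Another of them lay within 100 kb of 211 (35.4%), whereas 3.29% of the other sites that could pass had one that close, and within 1 Mb of 381 (63.9%), against 27.3%. Joined at no more than 1 Mb, they formed 328 stretches, of which 215 were single sites and 12 held 6 or more. Those 12 stretches held 115 of the sites (19.3%). Sites in them were intergenic in 67.8% of cases, with a median GC content of 38.7% and 1 gene in 1 Mb. The 215 single sites were intergenic in 37.7%, with 42.6% GC and 6 genes.

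Grouping of this kind was seen in the mixed pairings too. In the order of their counts above, 62.4%, 75.5%, 58.1% and 50.6% of the mixed sets had another site of their set within 1 Mb. The share was 63.9% for the 596 and 26.0% for the 104 sites higher in HAT1-/-. The 1125 sites higher in both replicates numbered 2 formed 36 stretches of 6 or more with 25.4% of their sites, whereas the other 3 mixed sets had between 2 and 7 such stretches. The 104 sites higher in HAT1-/- had 1. The largest number of sites in a stretch was 21 by genotype, and 15, 13, 9 and 7 in the mixed sets.

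The largest stretch spanned 2.85 Mb of chromosome 1 (chr1:143503776-146357347) and held 21 of the sites among 30 that could pass. It runs through the cluster of Rgs2, Rgs1, Rgs21 and Rgs18, which encode regulators of G protein signalling, to Brinp3. Its 21 sites averaged 35.0 and 34.4 normalized counts in HAT1+/+ and 4.38 and 6.19 in HAT1-/-. All 7 sites near Rgs21 that could pass met the rule, from the strongest with 54, 36, 8 and 5 to the weakest with 20, 21, 3 and 5. Near Rgs2, 5 of 7 did, among them sites with 68, 54, 1 and 11 and with 32, 47, 0 and 5, and a further site within 3 kb of a TSS with 37, 36, 4 and 15. The strongest Rgs2 promoter site had 230, 182, 17 and 126 and missed the rule through HAT1-/- replicate 2.

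Near Rgs1 the sites had 45, 26, 3 and 5, then 25, 20, 2 and 3, and 29, 19, 8 and 3 normalized counts. Near Rgs18 the strongest had 93, 132, 22 and 27, and others had 23, 17, 6 and 2, and 9, 36, 1 and 3. A further site near Rgs18 that could pass went the other way in 1 library, with 28, 14, 45 and 8, HAT1-/- replicate 1 lying above both HAT1+/+ libraries. The outermost, near Cdc73 and Brinp3, had 33, 11, 0 and 3 and 45, 15, 1 and 3, and the site near Uchl5 had 25, 19, 3 and 3. Within the same stretch the promoter sites at Cdc73, Glrx2 and Uchl5 kept between 215 and 439 in all 4 libraries. They lay between the selected site near Cdc73 and that near Uchl5.

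In the stretch at Brinp1 nearly all sites met the rule. Over 1.66 Mb (chr4:67292079-68954757), 14 of 15 sites that could pass met the rule, with means of 65.7 and 92.4 in HAT1+/+ and 6 and 6.07 in HAT1-/-. All 11 sites nearest to Brinp1 that could pass were included. Its promoter had 68, 147, 8 and 11, and intronic sites had 274, 452, 23 and 38, and 47, 62, 2 and 8. Besides the site with the largest ratio, intergenic sites had 60, 84, 4 and 6, then 88, 122, 9 and 6, then 133, 74, 12 and 0, and 47, 64, 9 and 0. The weaker ones had 32, 54, 3 and 0, and 18, 26, 2 and 2. A site within 3 kb of the TSS of a noncoding RNA had 37, 41, 5 and 2. At the far end, 3 sites nearest to Tlr4, the receptor for lipopolysaccharide, had 10, 41, 1 and 3, then 11, 34, 2 and 3, and 10, 32, 1 and 3, with HAT1+/+ replicate 1 well below replicate 2 at each. The site that could pass and did not had 10, 49, 2 and 6.

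In the third, 0.617 Mb of chromosome 5 (chr5:39145619-39762648), 13 of 15 sites met the rule around Clnk, an adaptor of immune receptor signalling, and Hs3st1, a heparan sulfate sulfotransferase. The means were 69.0 and 66.2 in HAT1+/+, and 16.8 and 5.85 in HAT1-/-, so here replicate 2 was the lower of the HAT1-/- libraries. The promoter of Hs3st1 had 225, 179, 38 and 12, and its other sites ran from 31, 25, 4 and 0 up to 126, 105, 40 and 20. Near Clnk the strongest site had 155, 219, 62 and 11, and a run of closely spaced sites had 23, 29, 3 and 8, then 32, 39, 13 and 6, then 48, 44, 9 and 3, and 32, 47, 14 and 2. In this stretch the 2 HAT1-/- libraries differed, with replicate 1 between replicate 2 and the HAT1+/+ libraries at most of its strong sites.

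**Figure D4:**
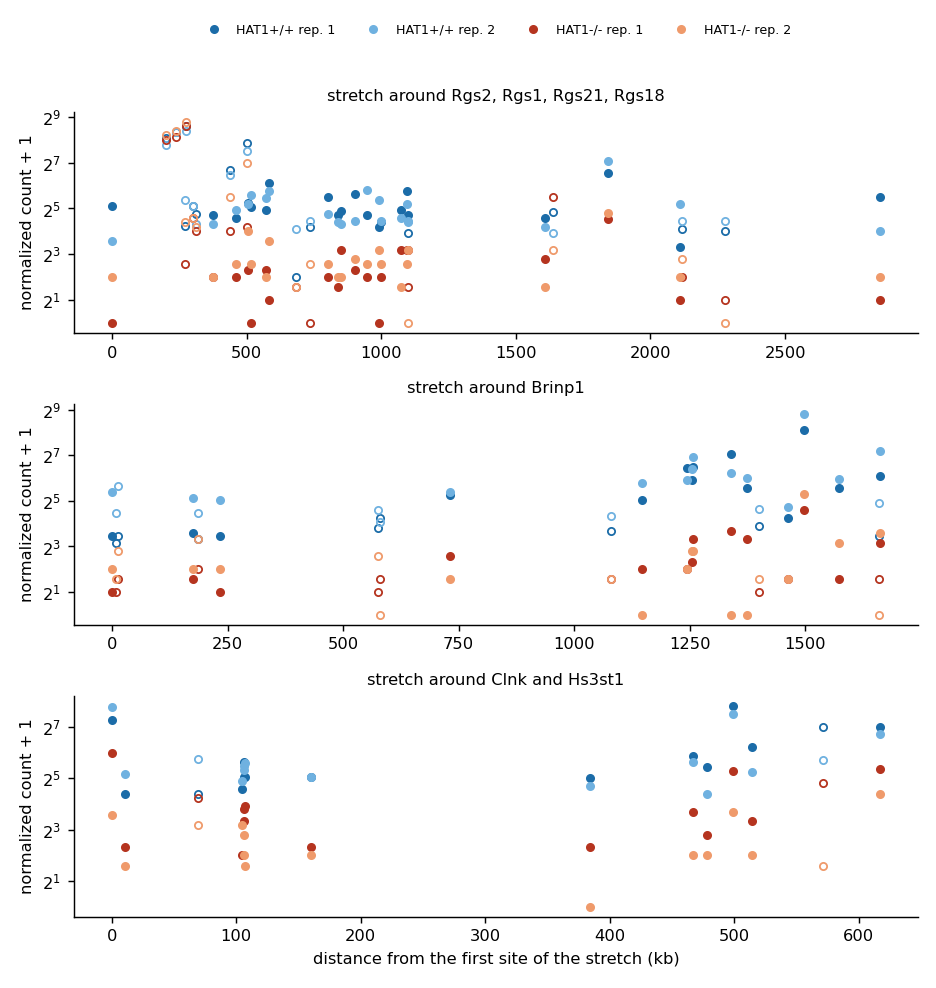
Normalized count plus 1 (log2 axis) of every site in the 3 stretches with the most of these sites, against the distance in kb from the first site, with sites that met the rule filled and others open. In the Brinp1 stretch the HAT1-/- values lie below the HAT1+/+ values at the filled sites and at the open ones, except for 1 with a value of 9 in both HAT1+/+ replicate 1 and HAT1-/- replicate 2, whereas at the start of the Rgs stretch some open sites are level in all 4 libraries.

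Sites near the selected ones that the rule had not taken were lower as well. For each of the 596, the next 12 unselected sites on each side were averaged, at any distance, with fewer near a chromosome end. These are different sites in the same libraries. The median of these averages was a log2 difference of -0.34, and at 188 (31.5%) it was under -0.58, against 1.97% of the other sites that could pass. The neighbours were displaced more in HAT1-/- replicate 1 (median -0.46, with 42.8% under -0.58) than in HAT1-/- replicate 2 (median -0.20, with 11.7%). Taken by the same measure, the low libraries minus the high ones, the mixed sets had medians of -0.07, -0.26, -0.25 and -0.17, with 1.21%, 16.0%, 15.1% and 8.15% under -0.58. Neighbours were thus displaced around most mixed sets too, to a smaller extent than around the 596. Since the comparison is of the same 4 libraries from which the sites were selected, no test was made.

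The 188 sites with strongly displaced neighbours differed from those without. They were intergenic in 60.6% of cases, had a median GC content of 39.3% and 1 gene in 1 Mb, and a median ratio of 3.00. The 249 sites with neighbours from -0.58 to -0.1 were intergenic in 39.0%, with 42.1% GC, 4 genes and a ratio of 2.40. The 159 sites whose neighbours averaged above -0.1 were intergenic in 37.1%, with 42.9% GC, 6 genes and a ratio of 2.22. The HAT1+/+ signal of these groups was alike, with medians of 39.5, 36 and 38.

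The difference declined with distance. The profile was made for the genotype grouping alone, and a like decline around the mixed sets was not tested. Other sites 1 to 3 kb from one of the 596 had a median log2 difference of -0.57 over 56 sites, those from 3 to 10 kb -0.31, and those from 30 to 100 kb -0.13 over 1859 sites. From 300 to 1000 kb the median was -0.01. Between the 2 HAT1+/+ libraries the same nearest sites differed by a median of 0.30, with quartiles of -0.26 and 0.75. Those from 3 to 10 kb differed by a median of -0.17, with quartiles of -0.74 and 0.25. For the difference between genotypes the quartiles were -1.42 and -0.075 at 1 to 3 kb, and -0.86 and 0.06 at 3 to 10 kb. Single sites thus varied widely between lines of the same genotype at these places. In the plot by distance the HAT1-/- replicates lie below 0 up to 100 to 300 kb.

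**Figure D5:**
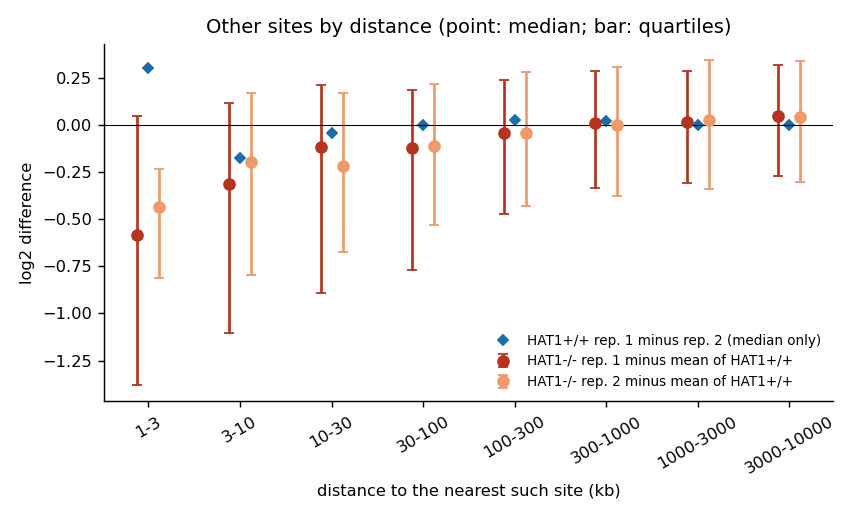
Median log2 difference from the HAT1+/+ mean (y axis) of sites outside the 596, by distance to the nearest of them in kb, for each HAT1-/- library with quartiles as bars, and the median difference between the HAT1+/+ libraries as diamonds. Both HAT1-/- medians lie at -0.43 or lower within 3 kb and are near 0 beyond 300 kb. No such profile was made for the mixed groupings.

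Promoters of protein-coding genes formed a small part. Of 21752 sites within 3 kb of a protein-coding TSS that could pass, 89 (0.409%) met the rule, at 86 genes. Besides Gm3468, Serpinb8, Brinp1 and Hs3st1, the largest ratios were at Pcdh20, a protocadherin, with 42, 38, 4 and 3 normalized counts. The promoter of Pcsk5, which encodes a proprotein convertase, had 170, 129, 20 and 18. Cyp2j9, a cytochrome P450, had 43, 45, 2 and 9, and Kcnip4, a potassium channel interacting protein, had 38, 71, 8 and 2. The promoter of Negr1, an adhesion molecule of neurons, had 144, 134, 8 and 32, with HAT1-/- replicate 1 far below replicate 2. At Smyd2, a lysine methyltransferase gene, 1 of its 4 promoter sites met the rule, with 52, 61, 13 and 12.

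Most of the nearest genes had a single site, and a few had several. The 596 had 431 nearest genes, of which 91 had 2 or more and 13 had 4 or more. Brinp1 had 11 of 11 that could pass, Lrrc4c, which encodes a netrin-G ligand of synapses, 8 of 24, Hs3st1 7 of 10 and Rgs21 7 of 7. Negr1 had 6 of 13, Serpinb2 5 of 5, Flrt2 5 of 32, and Epha4, an ephrin receptor, 4 of 17. At Lrrc4c the promoter had 151, 257, 32 and 56 and an intronic site 53, 147, 9 and 17, each with HAT1+/+ replicate 1 below replicate 2.

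Grouped by gene family, the highest shares were those of the Serpins and of a list of synaptic and neuronal adhesion genes of gene-poor regions. Since the lists were chosen with earlier results of these data known, the counts describe the group and support no more. Of 776 sites nearest to the adhesion list that could pass, 61 (7.86%) at 25 genes met the rule, the Brinp1 sites included, against 0.838% over all. That list was drawn up for genes of gene-poor regions, where the share over all sites was higher, at 5.68% with no protein-coding TSS in 1 Mb and 2.43% with 1 or 2. Serpins, the protease inhibitors, had 8 of 92 (8.70%), in 3 genes, and 7 of the 8 lay in a single stretch of 0.651 Mb at Serpinb2 and Serpinb8 on chromosome 1. Near Serpinb2 the sites had 30, 31, 4 and 2, then 40, 36, 5 and 3, and 98, 100, 16 and 11. The HAT1+/+ libraries agreed closely at all 3.

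Cadherins and protocadherins had 13 of 350 (3.71%), among them a further Cdh7 site with 14, 54, 0 and 2. Clustered receptor and secreted families had 7 of 370 (1.89%), including a site near the olfactory receptor gene Olfr275 with 101, 61, 6 and 11 and the smaller Mrgprb5 site with 51, 69, 5 and 11. The 1829 genes of this list had few sites that could pass.

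Transcription factor and growth factor genes were near the background. Sox, Fox, homeobox and T-box genes had 14 of 1337 (1.05%). These included a pair of sites nearest to Sox21 with 170, 81, 10 and 6 and with 109, 63, 6 and 8. An exonic site nearest to Six2 had 48, 63, 12 and 6, and a site 139 kb from Foxo1 had 53, 50, 13 and 8. Growth factors and morphogens had 9 of 930 (0.968%). Among these were a site nearest to Bmp7 with 59, 26, 5 and 8 and a site within Nrg3 with 40, 15, 2 and 5. A site 114 kb from Fgf9 had 23, 24, 6 and 9, and the promoter of Sfrp2, a Wnt antagonist, had 169, 115, 51 and 48. Of these Sfrp2 alone was strong in HAT1-/- cells too.

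Genes of the fibroblast program could not be told from the background at these counts. Mesenchymal transcription factors had 5 of 799 (0.626%, 0.268 to 1.46), among them the Meox2 promoter with 37, 76, 5 and 18 and a weak intronic site of Ebf1 with 20, 21, 6 and 9. Matrix genes had 3 of 697 (0.430%, 0.146 to 1.26), all weak, with 19, 27, 8 and 8 near Col6a3, 25, 20, 8 and 9 near Timp3, and 30, 19, 9 and 6 near Col14a1. Chemokine, cytokine and interferon genes had 0 of 577, and cell cycle and p53 target genes 0 of 188. The upper limits of the Wilson intervals were 0.661% and 2.00%. The first lies under the 0.838% over all sites, but these intervals cover counting error alone.

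AP-1 letters were more frequent in these sites than in all that could pass, and promoters, which hold them less often, were fewer among them. In the middle 300 bases, TGANTCA on either strand was found in 281 (47.1%, 43.2 to 51.2), against 36.9%. Outside promoters the shares were 53.4% (250 of 468, 48.9 to 57.9) and 46.1%, and in promoters 24.2% and 21.2%. Outside promoters the other sets had 41.8% (higher in HAT1-/-) and 50.7%, 46.2%, 42.9% and 48.2% (mixed pairings). The share in the 596 was the highest of these 6 sets, by less than the width of its interval over the mixed set nearest to it. The window printed above for Cdh7 is an example with 2 matches.

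Other letters were searched in the same windows. The TEAD letters GGAATG were in 31.5%, against 24.4%, and outside promoters in 33.5%, against 28.5%, while the 104 sites higher in HAT1-/- had 39.4% over all and 38.5% outside promoters. The SP letters GGGCGG of GC-rich promoters were in 9.56%, against 18.9%, and within promoters in 25.8%, against 39.3%, with 2.88% of the 104. The pattern of CTCF, the factor of chromatin loop anchors, was in 2.35% (1.40 to 3.9), against 4.68%, and the ETS letters CCGGAAG in 2.68%, against 4.07%. Neither was found in the 104 (0%, upper limit 3.56%). RUNX (TGTGGTT, 10.2% against 9.85%), E-box (CAGCTG, 18.6% against 19.3%), homeobox (TAATTA, 3.86% against 4.43%), CRE (TGACGTCA, 0.671% against 0.900%) and the CArG box by its pattern (1.85% against 1.72%) were near the background. Each was sought on both strands, and the homeobox letters can occur within a CArG match. A match is a description of the letters and not a bound site.

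A few sites had near-identical copies elsewhere in the genome, where reads cannot be placed with certainty. Of the 596, 10 (1.68%) had a copy of at least 95% identity over at least 80% of their length, against 0.515% of those that could pass. The most copies, 27, were of a site 708 kb from Gm21863 with 25, 31, 0 and 2 normalized counts. Next were 19 near Gm14403 with 92, 46, 2 and 18, and 12 for the smaller Mrgprb5 site. Without sites that had a copy, 586 remained. The Gm3468 promoter had none by this criterion.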

How the data were processed

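Accessibility was measured by ATAC-Seq in 4 libraries. The authors aligned reads to mm10 with BWA 0.7.12, called peaks with MACS2 2.1.0 and used DESeq2, per the study's methods and the submitters' processing notes. The deposited table gives 1 score per site and library, a read count divided by a factor for the library and rounded. Read filters, multiple mapping and the Tn5 offset were not given in the sources used here. 4 columns of the authors' own comparison (log2 fold changes, p-values) were not used. Libraries were grouped by genotype label and replicates numbered in accession order.

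The sites, gene lists and motifs were chosen with earlier results of these data known. The rule (pseudocount 1, ratio 2, minimum 20) was applied to all libraries and all pairings. Position came from GENCODE M21 on GRCm38 by the middle of the site, with a promoter within 3 kb of any TSS, and second copies from minimap2 2.31. Approximate reads came from the spacing of values from 6 to 100. Named sites were the 10 largest ratios, the 5 highest HAT1+/+ means, the 10 protein-coding promoters with the largest ratio, the 3 stretches with the most sites, 3 on each side of the threshold, and up to 4 per gene list. Some of these sites and 1 sequence are not reported here. The scripts were tested on simulated data. The alternatives were another pseudocount, ratio, minimum, scaling, window and motif length, and leaving out each library. With 2 libraries a genotype, and selection on the same values, no p-value was computed. Python 3.11.15, numpy 2.4.6, pandas 2.3.3 and scipy 1.17.1 were used.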

Additional observations from a re-analysis of the deposited data

How the results depend on the processing

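No paired analysis was possible because the line names share only 1 number across genotypes, whose meaning is not stated, and replicate numbers were given in accession order. Against 596, there were 365 sites with a pseudocount of 5, 1611 with a ratio of 1.5, 188 with a ratio of 3, 201 with a minimum of 50 and 368 after quantile normalization. The 4 mixed sets, in the order of the report, gave 392 and 140 for the first and last with a pseudocount of 5, 2260, 3063, 1404 and 1099 with a ratio of 1.5, 103, 262, 189 and 32 with a ratio of 3, and 262, 533, 197 and 134 with a minimum of 50. After quantile normalization they gave 720, 960, 452 and 249, so the genotype count then lay below 3 of them. With a ratio of 3 the genotype count was thus above 2 of the mixed counts and close to another, 189.

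The intergenic share was 49.6% with a pseudocount of 5, 40.9% and 58.0% with ratios of 1.5 and 3, and 36.8% with a minimum of 50. The promoter share was 30.8% with a minimum of 50 and 14.4% with a promoter window of 1 kb. Median GC content was 40.2% with a pseudocount of 5, 42.8% and 39.5% with ratios of 1.5 and 3, 42% with a minimum of 50, 40.6% after quantile normalization and 42% in a 10 kb window. The number of genes was 3, 6 and 2 under the same pseudocount and ratios, and 1 in 200 kb. The share with another site within 1 Mb was 81.6% and 58.5% with ratios of 1.5 and 3, 69.3% and 48.8% with minimums of 10 and 50 and 59.8% after quantile normalization, and 35.4% within 100 kb. The neighbours' median was -0.15 and -0.63 with ratios of 1.5 and 3, -0.43 with a minimum of 50 and -0.50 with 5 neighbours on each side. The AP-1 share was 51.6% with a ratio of 3 and 36.4% in 150 bp.

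Leaving out 1 library, which loosens the rule, gave 1665 to 3579 sites, and 1720 to 3142, 2494 to 4561, 1408 to 3586 and 1163 to 2324 in the mixed sets. The intergenic share was then 37.3% to 43.0%, the promoter share 17.4% to 28.3%, GC content 41.8% to 43.9%, the number of genes 4 to 7, the share within 1 Mb 80.9% to 92.6%, the neighbours' median -0.24 to -0.11 and the AP-1 share 40.2% to 47.5%. Leaving out chromosome 14 or sites with second copies, chosen after seeing the data, moved none of these results beyond its interval. The low HAT1-/- values rest on about 6 or 7 reads a site.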

Other observations

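Sites on the X chromosome were outside the rule. Of 1540 X sites with a HAT1+/+ mean of at least 20, 29 (1.88%) were at least 2-fold lower in both HAT1-/- libraries, and 1 of 1419 (0.0705%) was higher. The lower ones included an intergenic site near 4933436I01Rik with 51 and 16 normalized counts in HAT1+/+ replicates 1 and 2 and 2 and 0 in HAT1-/- replicates 1 and 2, and an intronic site of Mamld1 with 36, 41, 10 and 5 in the same order. Over all 1844 X sites the median was 41 and 42 in HAT1+/+ and 39 and 38 in HAT1-/-, a median log2 difference of -0.07. With X included the rule gave 625 sites. The sex of the embryos was not given in the sources used here.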
